A study of Homo sapiens with 6 samples.

Results

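Antiviral restriction factors are host proteins that block single steps of a viral life cycle. The genes followed here are 10 of the 37887 rows of the count table, chosen by symbol: MX1, MX2, RSAD2, CMPK2, BST2, SAMHD1, ZC3HAV1, SLFN5, SLFN11 and SLFN12. All 10 were among the 15450 genes with enough counts to be tested. The choice was made with earlier results of these data known. In BT-549 cells with silenced PBRM1, 9 of the 10 were downregulated and none was upregulated, beside 9.68% and 2.87% of all tested genes. MX1, MX2, RSAD2 and CMPK2 kept less than 0.2% of their control level and BST2 kept 0.394%, whereas SAMHD1, SLFN5, SLFN11 and ZC3HAV1 kept between 14.5% and 43.5%. SLFN12 kept 69.9%, a decrease below the minimum of a 2-fold change.

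BT-549 is an established triple-negative breast cancer (TNBC) cell line, and PBRM1 is the chromatin-targeting subunit of the PBAF remodeling complex. RNA-seq libraries were made from 3 samples labelled control shRNA and 3 samples labelled shPBRM1. All cells carried a tet-inducible PBRM1 shRNA vector according to the design text. The control libraries came from cells given DMSO at 0.1%, and the shPBRM1 libraries from cells given doxycycline (DOX) at 500 ng/ml, which switches the shRNA on. The titles name a control shRNA where the treatment labels name the vehicle, and the grouping is the same by either label. By the titles, the groups would also differ in the vector they carry, which cannot be told apart from the silencing. DOX exposure and PBRM1 silencing go together in these libraries, and their effects cannot be told apart. The comparison rests on 1 cell line and 1 silencing vector. The labels describe cells cultured in triplicate and give no further origin, so the p-values measure the spread between these samples, which may be technical.

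Cells that sense foreign nucleic acid secrete type I interferon, which acts through receptor-bound kinases on transcription factors. Interferon signalling reaches its target genes through interferon-stimulated response elements (ISREs) and gamma-activated sequences (GAS) in their promoters. MX1, MX2, RSAD2, CMPK2 and BST2 are classical targets of this pathway, whereas SAMHD1, ZC3HAV1 and the Schlafen (SLFN) genes are also transcribed in many cells without interferon.

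The promoter sequences were searched for these 2 motifs, and the matches are set beside the expression values further below, as a description only. The RefSeq windows (GRCh38.p14) run from 250 bases before to 50 bases after an annotated start, and 8 of the 10 genes had 13 such windows. MX2 and SLFN5 had no entry. The ISRE core was taken as GAAANNGAA and the GAS as TTCNNNGAA, on both strands. An ISRE core was present in windows of 4 of the 8 genes, MX1, RSAD2, CMPK2 and BST2, beside 9.86% of the 27305 genes with a window. A GAS was present in 4 of the 8, MX1, BST2, ZC3HAV1 and SLFN11, beside 9.38% of all genes. Genes with several windows have more chances of a match, and the 4 genes with an ISRE core had 9 of the 13 windows (3 each for MX1 and CMPK2, 2 for RSAD2, 1 for BST2), while the other 4 had 1 each. Over single windows, 6 of the 13 held an ISRE core and 4 of the 13 a GAS, beside 8.11% and 7.66% of all windows. RSAD2 and CMPK2 share a site, described below, that counts for both genes, and windows of CMPK2 overlap. The genes and windows are thus not all separate cases. The windows of SAMHD1 and SLFN12 held neither motif. Such a match is a description of letters and was not tested as a binding site. The matched sites follow, each as 30 bases read 5′ to 3′ on the strand of the named gene, with the matches in capitals; where matches overlap, their union is in capitals.
MX1 (first start, plus strand, chr21:41420561-41420590, 2 overlapping ISRE cores at 12 to 26 bases after the start): gcagaaatGAAACCGAAACTGAAttgtccg
MX1 (downstream start, plus strand, chr21:41431847-41431876, an ISRE core overlapping a GAS, -195 to -181): cactctgtTTCTCTTTCCGTGAAtaaaaag
RSAD2 (first start, plus strand, chr2:6865795-6865824, an ISRE core, -79 to -71): cagcgggaaacGAAAGCGAAgcgttgcggg
BST2 (minus strand, chr19:17405742-17405771, a GAS overlapping 2 ISRE cores, -136 to -116): ctcctTTCTGGGAAACTGAAACTGAAaacc
BST2 (minus strand, chr19:17405670-17405699, a GAS, -58 to -50): ggtcagagcacTTCCTGGAActtgctattg
ZC3HAV1 (minus strand, chr7:139109806-139109835, a GAS, -104 to -96): gggtctgctctTTCCGGGAAtgggtggggt
SLFN11 (minus strand, chr17:35373785-35373814, a GAS, -182 to -174): aaatccccaaaTTCCCGGAAactaagaact

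RSAD2 and CMPK2 are transcribed away from each other, and the genes overlap at their starts in the annotation. The core shown for RSAD2 occupies chr2:6865806-6865814 and is the same 9 bases that match in the CMPK2 window, where they lie 6 to 14 bases after a CMPK2 start. The 2 genes therefore share this match. A further RSAD2 start lies downstream, and its upstream window held a second ISRE core between -144 and -136. The exon-free 138 bases of that window (chr2:6877527-6877664, plus strand) are shown with the core in capitals, followed by the exon-free 141 bases upstream of SLFN12 (chr17:35433284-35433424, minus strand), the gene with the smallest change, which hold no match.
RSAD2: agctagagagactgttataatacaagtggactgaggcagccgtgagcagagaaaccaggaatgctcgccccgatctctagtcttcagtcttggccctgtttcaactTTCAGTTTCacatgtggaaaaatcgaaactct
SLFN12: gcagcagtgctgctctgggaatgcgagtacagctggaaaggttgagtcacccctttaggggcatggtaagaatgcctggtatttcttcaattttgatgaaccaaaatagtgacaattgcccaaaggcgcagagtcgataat

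The 6 libraries held between 36429395 and 65096297 counts. Levels are given in CPM, counts scaled to the library size, after TMM normalization. The floor of detection, 3 counts, was between 0.0471 and 0.0804 CPM. Changes were tested with edgeR's quasi-likelihood F-test across all 15450 genes, and a gene was called where its adjusted p was under 0.05 and its level changed more than 2-fold. PBRM1 itself was at 158 ± 2.30 CPM (SD, n = 3) in the control and 41.9 ± 1.22 CPM (SD, n = 3) in the shPBRM1 libraries (log2 fold change -1.91, adjusted p = 9.98e-23). Summed markers of mesenchymal cells, the type BT-549 resembles, were between 1600 and 1650 CPM in the control and between 1480 and 1510 CPM in the shPBRM1 libraries, with FN1 (-1.33) the only 1 of 4 called. The epithelial markers CDH1 and EPCAM together were between 4.67 and 5.37 CPM and between 1.27 and 1.97 CPM, respectively. CDH1 (-1.73) was called and EPCAM was not tested. Of the genes for the receptors used to class TNBC, ERBB2 was at 51.3 ± 1.10 CPM (SD, n = 3) in the control libraries, whereas ESR1 and PGR had too few counts to be tested. These are RNA levels, and the receptor proteins were not measured in these libraries. The 6 leukocyte markers summed to between 0.938 and 1.34 CPM in the control and between 0.8 and 0.899 CPM in the shPBRM1 libraries, and CD3E and MS4A1 had no counts in any library. Among them PTPRC was lower, at 16.6% of its control level, and CD14 was higher, at 205%. The 3 endothelial markers summed to less than 0.5 CPM in every library, and none was tested. The part of other cells in the results was not tested, and in bulk RNA fewer cells of a type and less RNA per cell cannot be told apart.

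Among all tested genes, 9.68% were called lower and 2.87% higher in shPBRM1 cells, beside the 9 and 0 of the 10 restriction factors. Without the fold change minimum, 33.2% of all genes were lower, and so were all 10 restriction factors. Normalized values of the groups did not overlap for any of the 10, which was also the case for 68.3% of all tested genes. The median log2 fold change was -5.39 over the 10 genes and -0.01 over all tested genes. These genes were chosen with earlier results known, so the counts are a description. Summed over the 10 genes, the level was 2614 ± 36.4 CPM (SD, n = 3) in control and 203.2 ± 2.27 CPM (SD, n = 3) in shPBRM1 cells. MX1 supplied 48.8% of the control sum. SAMHD1, SLFN5 and ZC3HAV1 together supplied 28.2% of the control sum and 91.4% of what was left in shPBRM1 cells.

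**Figure D1:**
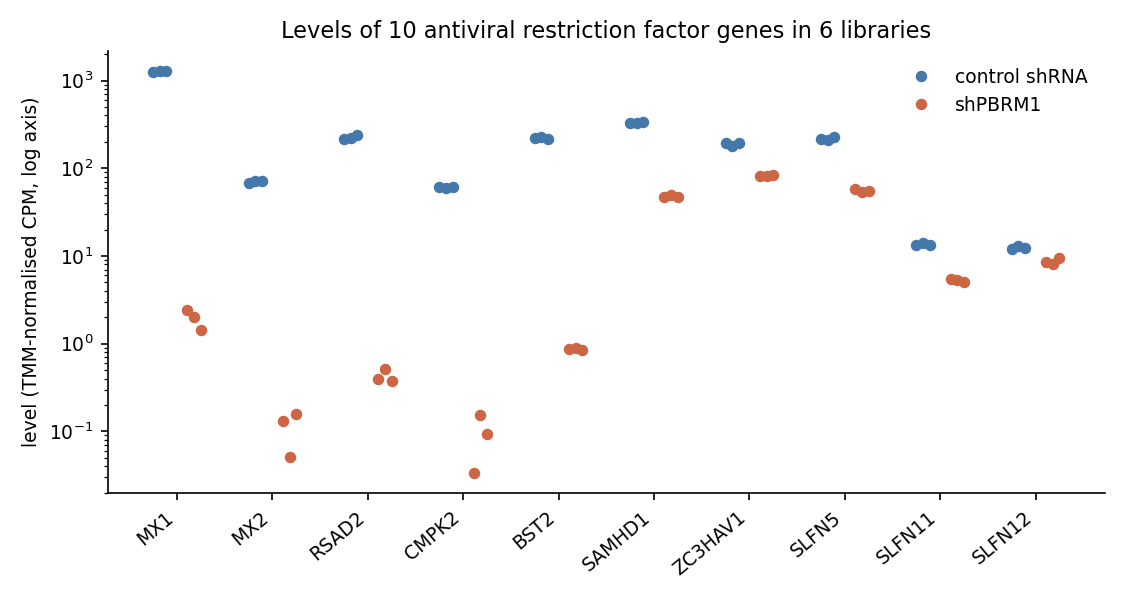
Levels of the 10 genes in TMM-normalized CPM (log axis), with 1 point per library, 3 control shRNA libraries in blue and 3 shPBRM1 libraries in orange. The MX1, MX2, RSAD2, CMPK2 and BST2 points fell to below 3 CPM, whereas those of SLFN12 lay close together at 12.0 to 13.1 CPM and 8.02 to 9.49 CPM.

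MX1 and MX2 encode interferon-induced dynamin-like GTPases that act against incoming viruses, MX1 in the cytoplasm and MX2 at the nuclear envelope. They lie side by side on the plus strand of chromosome 21 (MX2, chr21:41361943-41409390; MX1, chr21:41420304-41459214; GENCODE v29, GRCh38). MX1 had 46751, 62615 and 64849 counts in the control libraries and 146, 79 and 91 counts in the shPBRM1 libraries. All 3 control libraries were thus far above all 3 shPBRM1 libraries. The level fell from 1276 ± 19.9 to 1.96 ± 0.505 CPM (SD, n = 3 each), a log2 fold change of -9.35 (SE 0.22, adjusted p = 4.41e-27). Per kilobase of exon, MX1 ranked at 174 in control cells and at 13032 in shPBRM1 cells, among the 15235 tested genes with an exon length. An antisense gene, AP001610.1, overlaps MX1, and whether reads were counted by strand is not given in the sources used here.

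MX2 was transcribed at a lower level and fell by a similar factor. Its counts were 2511, 3458 and 3604 in the control and 8, 2 and 10 in the shPBRM1 libraries. The shPBRM1 counts were few, and that of replicate 2 was below the floor of 3 counts. The level fell from 70.0 ± 2.33 to 0.114 ± 0.0554 CPM (SD, n = 3 each), with a log2 fold change of -9.13 (SE 0.34, adjusted p = 8.28e-26). With pooled counts, 0.175% of the MX2 level was left, and the exact 95% interval for counting error was 0.107% to 0.271%. For MX1 the pooled share was 0.152% (0.136% to 0.170%), an interval that lies within that of MX2. The log2 ratio of MX1 to MX2 counts within a library, with 0.5 added to each count, was 4.19 in control and 4.07 in shPBRM1 cells. The difference of -0.11 (SE 0.54) was within the spread of the libraries (exact two-sided permutation test, p = 0.7, adjusted p = 0.8 over 5 ratios). It was -0.46 with 2 counts added and 0.36 without shPBRM1 replicate 3, so that its direction was not resolved.

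RSAD2 encodes viperin, a radical SAM enzyme that converts CTP into a chain-terminating nucleotide analog, and CMPK2 encodes a mitochondrial nucleotide kinase that phosphorylates CMP and UMP. The genes adjoin on chromosome 2 (CMPK2, minus strand, chr2:6840570-6866635; RSAD2, plus strand, chr2:6865806-6898239) and share the ISRE core shown above. RSAD2 had 8103, 10791 and 11964 counts in the control libraries, compared with 24, 20 and 24 counts in the shPBRM1 libraries. The shPBRM1 counts were close to each other and far below every control library. The level fell from 225 ± 10.5 to 0.430 ± 0.0735 CPM (SD, n = 3 each), with a log2 fold change of -9.07 (SE 0.13, adjusted p = 5.17e-29).

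CMPK2 counts were 2262, 2896 and 3056 in the control and 2, 6 and 6 in the shPBRM1 libraries. Their sum of 14 was the lowest of the 10 genes after silencing, next to 20 for MX2, and replicate 1 was below the floor. The level decreased from 60.3 ± 0.592 to 0.0939 ± 0.0604 CPM (SD, n = 3 each), and the log2 fold change was -9.41 (SE 0.41, adjusted p = 4.54e-25). Spread differed sharply between the groups, since the CV of CMPK2 was 0.983% in control and 64.4% in shPBRM1 cells. Pooled counts left 0.143% of the CMPK2 level (exact 95% interval 0.0781% to 0.240%) and 0.185% of the RSAD2 level (0.143% to 0.234%). The log2 ratio of RSAD2 to CMPK2 was 1.90 in control and 2.29 in shPBRM1 cells. Its difference of 0.39 (SE 0.51) was within the spread (exact two-sided permutation test, p = 0.8, adjusted p = 0.8 over 5 ratios). It was 0.05 with 2 counts added and -0.12 without shPBRM1 replicate 1, and its direction was not resolved either. Because the genes overlap on opposite strands, reads from their shared bases cannot be assigned without the strand.

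BST2 encodes tetherin, a membrane protein that holds budding enveloped virions at the cell surface (minus strand, chr19:17402939-17405648). It had the highest level per kilobase of exon of the 10 genes in control cells, at 197 CPM per kb, and ranked at 120 among the tested genes with an exon length. The counts were 8215, 10941 and 10974 in the control and 52, 35 and 54 in the shPBRM1 libraries. After scaling, each group was tight, and the groups lay far apart. The level fell from 221 ± 3.8 to 0.871 ± 0.0264 CPM (SD, n = 3 each), a log2 fold change of -7.99 (SE 0.028, adjusted p = 7.88e-30). This SE holds only the spread between libraries and is smaller than the counting error of the 141 counts in the shPBRM1 libraries together. Pooled counts left 0.392% (exact 95% interval 0.330% to 0.463%), which does not overlap the intervals of MX1, MX2, RSAD2 or CMPK2.

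SAMHD1 encodes a triphosphohydrolase that degrades dNTPs and thereby limits reverse transcription (minus strand, chr20:36889773-36951901). The counts were 12187, 15872 and 17019 in the control and 2830, 1916 and 3025 in the shPBRM1 libraries. SAMHD1 was thus still well detected in every shPBRM1 library, although all 3 were below the control libraries. The level fell from 330.2 ± 6.32 to 47.9 ± 1.13 CPM (SD, n = 3 each), with a log2 fold change of -2.78 (SE 0.025, adjusted p = 4.85e-25). In the annotation SAMHD1 overlaps TLDC2 on the other strand.

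ZC3HAV1 encodes the zinc finger antiviral protein ZAP, which binds CpG-rich viral RNA and recruits RNA decay (minus strand, chr7:139043520-139109719). The counts were 7261, 8784 and 9720 in the control and 4956, 3159 and 5299 in the shPBRM1 libraries. In CPM the control libraries were between 181 and 194, and the shPBRM1 libraries were between 81.2 and 83.1. The mean fell from 189 ± 7.52 to 82.3 ± 1.01 CPM (SD, n = 3 each), a log2 fold change of -1.20 (SE 0.035, adjusted p = 2.91e-18). This was the smallest of the 9 called decreases, yet ZC3HAV1 had the highest level of the 10 genes in shPBRM1 cells, at 9.99 CPM per kb.

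The Schlafen genes encode proteins with an RNase-like core, and the 3 members lie in 1 cluster on chromosome 17. SLFN5 (plus strand, chr17:35243036-35273655) is a nuclear protein that acts on transcription. Its counts were 8122, 10094 and 11355 in the control and 3481, 2090 and 3492 in the shPBRM1 libraries. Every shPBRM1 library was below every control library after scaling, and the mean fell from 217 ± 8.78 to 55.5 ± 2.23 CPM (SD, n = 3 each), a log2 fold change of -1.96 (SE 0.047, adjusted p = 1.22e-21).

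SLFN11 (minus strand, chr17:35350305-35373701) cleaves tRNA and is known for sensitizing cells to DNA-damaging drugs. It had 502, 690 and 677 counts in the control and 329, 208 and 324 counts in the shPBRM1 libraries. The level was low in both groups and fell from 13.7 ± 0.437 to 5.30 ± 0.202 CPM (SD, n = 3 each), with a log2 fold change of -1.37 (SE 0.041, adjusted p = 1.29e-12). SLFN12 (minus strand, chr17:35411060-35433283), another RNase of the family, had 447, 639 and 616 counts in the control and 516, 312 and 605 counts in the shPBRM1 libraries. Raw counts of SLFN12 overlapped between the groups, whereas normalized levels, at 12.0, 13.1 and 12.2 CPM against 8.60, 8.02 and 9.49 CPM, did not. The log2 fold change was -0.51 (SE 0.081, adjusted p = 1.21e-05), below the 2-fold minimum.

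The remaining Schlafen genes were sparse. SLFN13 had 20, 40 and 28 counts in the control and 8, 13 and 16 in the shPBRM1 libraries, and was called lower (log2 fold change -1.46, adjusted p = 0.00249). SLFNL1 had 53, 48 and 76 counts against 69, 64 and 70, with a log2 fold change of -0.03 (SE 0.26, adjusted p = 0.920). SLFN12L (3, 1 and 12 against 3, 6 and 8 counts) and SLFN14 (2, 4 and 0 counts against none) were too low to be tested.

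Since SLFN5, SLFN11 and SLFN12 belong to 1 cluster, their counts were also compared within each library, which needs no scaling between libraries. The log2 ratio of SLFN5 to SLFN11 was 4.01, 3.87 and 4.07 in the control and 3.40, 3.33 and 3.43 in the shPBRM1 libraries. All shPBRM1 ratios were below all control ratios, and the difference was -0.60 (SE 0.066). The log2 ratio of SLFN5 to SLFN12 changed from 4.12 to 2.67, by -1.45 (SE 0.10), and that of SLFN12 to SLFN11 from -0.14 to 0.71, by 0.85 (SE 0.098). For each of these 3 ratios the groups did not overlap and p was 0.1 by an exact two-sided permutation test, which cannot go lower with 3 against 3 libraries (adjusted p = 0.167 over 5 ratios).

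**Figure D2:**
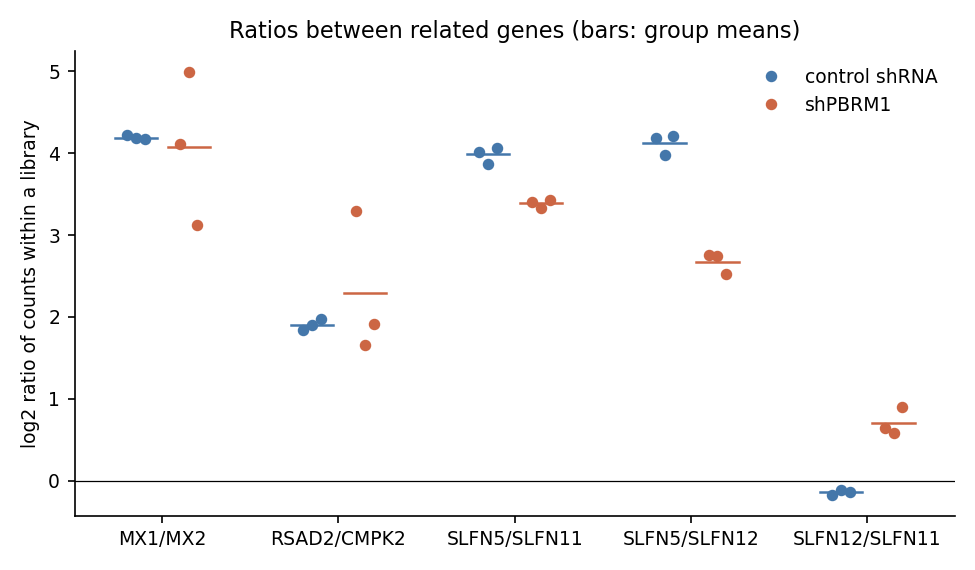
Log2 ratios of counts between related genes within each library (vertical axis, 0.5 added to each count), with 1 point per library and horizontal bars for group means. The MX1/MX2 and RSAD2/CMPK2 ratios of the shPBRM1 libraries scatter around those of the controls, whereas the 3 Schlafen ratios do not overlap between the groups.

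Ordered by log2 fold change, CMPK2, MX1, MX2 and RSAD2 followed each other, and each differed from the next by less than the spread of the libraries. Neighbours in the order were compared by the change in their log2 count ratio within a library, with 0.5 added to each count, which at a few counts is not the difference of the fitted log2 fold changes. The changes in ratio were -0.03 (SE 0.72) from CMPK2 to MX1, -0.11 (SE 0.54) from MX1 to MX2 and -0.24 (SE 0.56) from MX2 to RSAD2. Among these 4 genes the order is therefore not resolved. On the same ratio scale, the step from RSAD2 to BST2 was -1.04 (SE 0.12) and that from BST2 to SAMHD1 was -5.19 (SE 0.031), and in both the libraries did not overlap. At the few shPBRM1 counts of RSAD2 and BST2, these SEs are smaller than the counting error. SAMHD1, SLFN5, SLFN11, ZC3HAV1 and SLFN12 followed in steps of -0.82 (SE 0.055), -0.60 (SE 0.066), -0.17 (SE 0.071) and -0.68 (SE 0.096), also with no overlap. The genes were sorted on these same data before neighbours in the order were compared, so the steps are a description. Among all tested genes, CMPK2, MX1, MX2, RSAD2 and BST2 held the ranks 6, 7, 8, 9 and 14 from the lowest fitted log2 fold change, and SAMHD1 held rank 283. The middle 90% of all tested genes lay between -1.62 and 0.85, so that SLFN11, ZC3HAV1 and SLFN12 were inside this range.

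**Figure D3:**
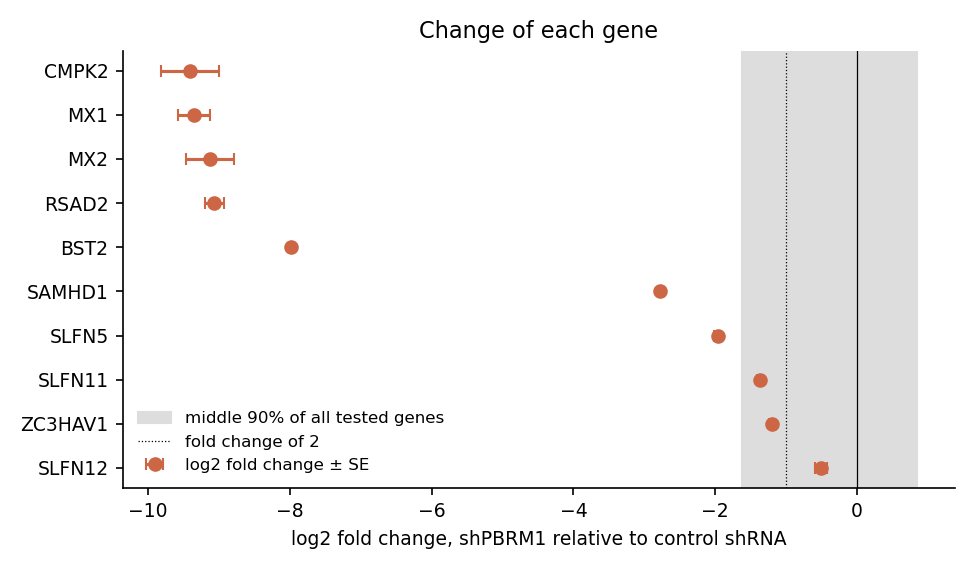
Log2 fold change of each gene in shPBRM1 relative to control shRNA cells (horizontal axis, error bars are SE over 3 libraries per group), with the range from -1.62 to 0.85 of the middle 90% of all tested genes in grey and a 2-fold decrease as a dotted line. CMPK2, MX1, MX2, RSAD2 and BST2 lie near -8 or below, the other genes above -3.

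Set beside the promoter sequences, the 4 genes with an ISRE core in a window (MX1, RSAD2, CMPK2 and BST2) had log2 fold changes between -9.41 and -7.99. The 4 genes with windows and no ISRE core (SAMHD1, SLFN11, ZC3HAV1 and SLFN12) had values between -2.78 and -0.51. The genes with a core had 9 of the 13 windows, and the 10 genes were chosen with earlier results known. The split is therefore a description. MX2 at -9.13 and SLFN5 at -1.96 had no window. The GAS sites fell in genes of both kinds, BST2 (-7.99) and MX1 (-9.35) as well as ZC3HAV1 (-1.20) and SLFN11 (-1.37). With the core extended by 1 A, 3 of the 8 genes held the ISRE, beside 4.38% of all genes with a window. CMPK2, with the lowest log2 fold change of the 10 genes (-9.41), had no match to the extended core, so that the split above depends on the motif chosen.

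Levels between genes were compared per kilobase of exon. In control cells the order was BST2 (197 CPM per kb), MX1 (148), RSAD2 (46.6), SAMHD1 (29.3), ZC3HAV1 (23.0), SLFN5 (20.2), CMPK2 (14.0), MX2 (5.36), SLFN12 (3.50) and SLFN11 (2.29). The lowest library of each gene was above the highest library of the next, so that neighbours in this order differed beyond their spread. In shPBRM1 cells the order was ZC3HAV1 (9.99 CPM per kb), SLFN5 (5.18), SAMHD1 (4.26), SLFN12 (2.44), SLFN11 (0.887), BST2 (0.778), MX1 (0.228), RSAD2 (0.0890), CMPK2 (0.0218) and MX2 (0.00873). BST2 and MX1 thus moved from the head of the order to its lower part, and ZC3HAV1 and SLFN5 moved to the head. In shPBRM1 cells CMPK2 (0.00774 to 0.0358 CPM per kb) and MX2 (0.00394 to 0.0120) overlapped.

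The genes around the restriction factors were examined next, as the 3 nearest tested genes on each side at any distance, up to 3280 kb. Of these 36 neighbours, 7 were called lower and 1 higher, beside 9.68% and 2.87% of all tested genes. Their median log2 fold change was -0.36. On chromosome 21, BACE2 (-3.10, 79.4 kb from MX2) and B3GALT5 (-2.63, 1690 kb from MX2) were lower. RIPK4 (0.69), the nearest tested gene on the MX1 side at 280 kb, did not pass the fold change minimum. BISPR, a noncoding RNA gene that starts 0.038 kb from BST2 in the opposite direction, fell from 4.51 ± 0.663 to 0.116 ± 0.0358 CPM (SD, n = 3 each), a log2 fold change of -5.32. MVB12A begins beside it, with exons of some transcripts over the more distal BST2 motif site shown above, and had a log2 fold change of -0.19, below the fold change minimum. CCDC194 (-4.55), on the other side of BST2, had only 10, 14 and 23 counts in the control and 0, 0 and 2 in the shPBRM1 libraries.

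Of the SAMHD1 neighbors, TLDC2 (-2.12), which overlaps it, and MROH8 (-1.36), 149 kb away, were lower. TLDC2 had only 16, 30 and 18 counts in the control and 5, 6 and 6 in the shPBRM1 libraries. Reads from the bases it shares with SAMHD1 cannot be assigned without the strand. ZC3HAV1L, a paralog of ZC3HAV1 and its neighbor, changed in the opposite direction. It had 407, 560 and 609 counts in the control and 1733, 1164 and 1866 counts in the shPBRM1 libraries, and its level rose from 11.5 ± 0.586 to 29.4 ± 0.525 CPM (SD, n = 3 each), a log2 fold change of 1.35 (adjusted p = 1.34e-14). All 3 shPBRM1 libraries were above all control libraries, the reverse of ZC3HAV1. SLFN13, beside SLFN12, was the only called neighbor in the Schlafen cluster. No neighbor of CMPK2 and RSAD2 was called, but of these only RNF144A, 19.2 kb from RSAD2, was close. The nearest tested gene on the CMPK2 side, SOX11, was 1140 kb away.

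**Figure D4:**
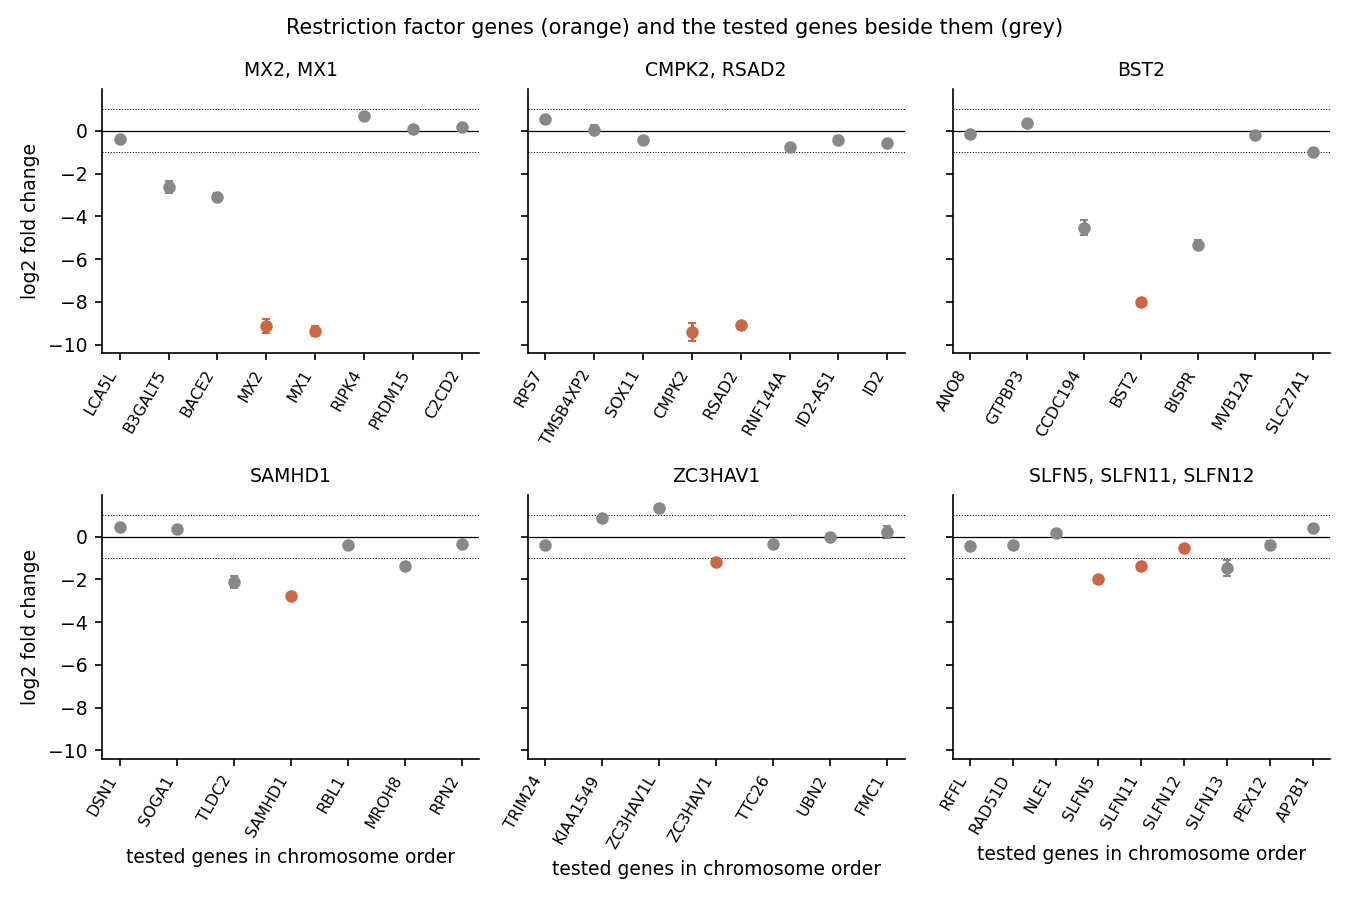
Log2 fold changes (vertical axis, error bars are SE, n = 3 per group) of the restriction factor genes in orange and of the 3 nearest tested genes on each side in grey, in chromosome order, with dotted lines at a 2-fold change. Low neighbors stand beside MX2 and BST2 (BACE2 at -3.10, BISPR at -5.32), and ZC3HAV1L at 1.35 stands beside ZC3HAV1 at -1.20. Spacing on the axis does not show distance.

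A list of 42 other restriction factors was read in the same way. Of these, 36 were tested, and 28 were called lower and none higher, beside 9.68% and 2.87% of all tested genes. The median log2 fold change was -2.66. The largest fitted change was in TRIM22, a ubiquitin ligase that represses viral transcription. It had 1184, 1573 and 1619 counts in the control libraries and 0 in every shPBRM1 library, so that it was at least 552-fold lower, taking 3 counts per library as the floor. The smallest called decrease was in ADAR, which edits adenosines in double-stranded RNA, with 1186 ± 10.2 CPM (SD, n = 3) in control and 486 ± 9.18 CPM (SD, n = 3) in shPBRM1 cells (-1.29). Of the 8 genes not called, SERINC3 (0.70), APOBEC3B (0.21) and ATRX (0.13) had positive log2 fold changes.

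Of 22 tested genes of interferon signalling, 7 were called lower and none higher, beside 9.68% and 2.87% of all tested genes. Their median was -0.27. The transcription factors STAT2 (-2.36) and IRF9 (-1.88) were lower. USP18, the protease that removes ISG15 and restrains the receptor, had the largest decrease of this list, at -5.37, and the transcription factor IRF1 had the smallest of those called, at -1.60.

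Relatives and biochemical partners of the 10 proteins were counted in the same way. Of 40 tested, 3 were called lower and 1 higher, near the shares of 9.68% and 2.87% over all tested genes, and the median log2 fold change was 0.11. Among dynamin-like GTPases related to MX, DNM1 (-1.37) was lower and the other 6 tested genes were not called. None of the 9 genes of cytosolic iron-sulfur assembly, which supplies the cluster of viperin, was called. None of the 13 genes of nucleotide supply, whose products SAMHD1 and CMPK2 act on, was called either, whereas 11 were higher and 1 was lower without the fold change minimum, with a median of 0.47. Over all tested genes, 31.5% were higher without that minimum. RRM1, the large subunit of ribonucleotide reductase, was closest to the minimum (log2 fold change 0.98, 65.5 ± 1.68 to 130 ± 5.26 CPM, SD, n = 3, named after its value was seen). Among ZAP cofactors and relatives, PARP12 (-2.39) was lower and ZC3HAV1L was higher, as described above.

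**Figure D5:**
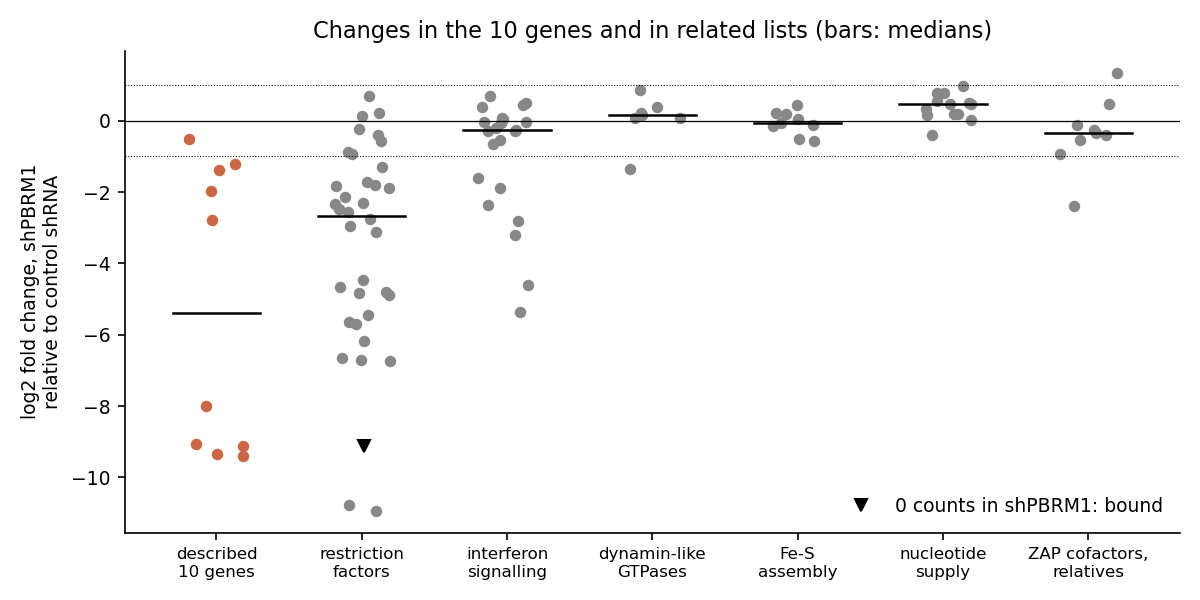
Log2 fold changes in shPBRM1 relative to control shRNA cells (vertical axis) for the 10 genes in orange and for related lists in grey, with 1 point per tested gene, horizontal bars for medians and dotted lines at a 2-fold change; the black triangle is TRIM22 at the bound set by 3 counts per library. The medians are -5.39 for the 10 genes, -2.66 for other restriction factors and 0.47 for nucleotide supply.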

How the data were processed

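RNA-seq was analyzed for 3 control shRNA and 3 shPBRM1 libraries of BT-549 cells, made per the labels with a stranded mRNA kit. The table that the authors deposited holds raw counts for each gene symbol, not normalized; the submitters' processing notes name CASAVA 1.8.2, STAR 2.7.9a, featureCounts, DESeq2 1.24.0 and GRCh38.p7, and the strand setting and annotation are not given in the sources used here. Control columns carry the cell line and a number, and were matched to the control titles by that number.

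Total counts were between 36429395 and 65096297. Of 37887 rows, 12608 had no count and 14 carried dates in place of symbols. Libraries of 1 group differed by more than sampling noise (chi-square of 4.92 to 24.9 per degree of freedom). The tests used edgeR 4.0.16 under R 4.3.3 (TMM factors, filterByExpr, quasi-likelihood F-test, Benjamini-Hochberg adjustment over 15450 genes). SEs come from the spread of log2 CPM with a prior count of 2, and can lie below the counting error where counts are few. Counting intervals are exact at 95% and, like the floor of 3 counts, cover counting error only. Exon lengths and neighbors come from GENCODE 29, in which 98.6% of tested genes had a length. Promoter windows come from RefSeq. The tests were checked on simulated counts.

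The members and the lists were chosen with earlier results of these data known. Named were all 10 members, the called genes with the largest and smallest change of each list and direction, STAT2, IRF9 and IRF1, all Schlafen relatives and the called neighbors; other genes were named after their values were seen. Results for 1 further gene of this rule are not reported here. Replicate numbers in the titles may pair the libraries. Deviations from the group means correlated at 0.734, 0.593 and 0.419 for the same number over 5622 genes with a mean log2 CPM above 5. For different numbers the values were between -0.671 and 0.464, and that of 0.464, for control 2 with shPBRM1 3, was above 0.419. The main tests, the SEs and the ratio tests left such a pairing out. Alternatives were DESeq2 1.42.0, RLE factors, library size only, 2 other filters, the replicate block, each library left out, glmTreat, no fold change minimum, an adjusted p under 0.001, a pseudocount of 2 and a longer ISRE.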

Additional observations from a re-analysis of the deposited data

How the results depend on the processing

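Of 346 alternative values, 334 kept their direction and side of the threshold or stayed within 1.5 times the count. Part of this agreement was fixed in advance. The log2 fold changes under glmTreat and the stricter adjusted p are those of the main fit, and the replicate block leaves the ratio differences unchanged. The number of restriction factors called lower was 9 in each alternative except with no fold change minimum, where it was 10, and none was called higher in any. With the replicate block it was 9, and the block changed no other call. SLFN12 was called only with no fold change minimum (log2 fold change -0.51, adjusted p = 1.21e-05). That setting also gave 3 other restriction factors called higher, 11 interferon signalling genes lower and 4 higher, 13 partner genes lower and 19 higher, and 21 neighbors lower and 10 higher. Over all tested genes it gave 33.2% lower and 31.5% higher. With a mean of at least 50 counts, 4 neighbors were lower, because CCDC194, TLDC2 and SLFN13 were not tested. With glmTreat, 5 neighbors were lower, because MROH8 and SLFN13 were not called. Partner genes called higher were between 1 and 3 with a library left out, and the 3 came without shPBRM1 replicate 2, where DNM3 and RRM1 joined ZC3HAV1L. The difference in the MX1/MX2 ratio was between -0.57 and 0.36 with a library left out, with the positive value without shPBRM1 replicate 3, and that of RSAD2/CMPK2 was between -0.12 and 0.70, with the negative value without shPBRM1 replicate 1. The cause of these changes of direction was not tested. CMPK2 had log2 fold changes between -9.81 and -8.97 over the alternatives and MX2 between -9.40 and -8.88, the widest ranges of the 10 genes.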
